A study of Mus musculus with 32 samples.

Results

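Respiratory complex I was examined in the retina through the genes named after it, the Nduf genes. The members were the entries of the expression table whose symbol starts with Nduf followed by a, ab, b, c, s, v or af and a number, and whose mean level over the libraries was at least 1 FPKM, a read abundance corrected for transcript length and sequencing depth. There were 42 such genes of 26630 entries, and no matching entry fell below that level. Of these, 38 carry subunit names and 4 are assembly factors, Ndufaf1 to Ndufaf4. The spaceflight group was 9 female C57 BL/6J mice that spent 37 days on the International Space Station in NASA animal enclosure modules, and the ground control group was 7 female C57 BL/6J mice kept in the same modules inside a simulator of the station's environment. All were wild-type animals with the same food bars, 16 weeks old at the start and 21 weeks old by their labels. Each library came from 1 retina of 1 mouse, dissected from a frozen and thawed carcass. By the labels, the spaceflight RNA libraries came from 4 left and 5 right retinas, and the ground control ones from 2 left and 5 right. Libraries are called here by the mouse number of the expression table. The labels of the M21 library contradict each other, 1 giving flight and another ground habitat control. It was counted as spaceflight. DNA from retinas of the study, mostly of the same mice, was examined by RRBS, reduced representation bisulfite sequencing, in 8 spaceflight and 8 ground control libraries.

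Complex I is the entry point of the mitochondrial respiratory chain. It takes electrons from NADH, passes them through a flavin and a row of iron-sulfur clusters to ubiquinone, and pumps protons across the inner membrane. Its core subunits carry out this chemistry. The nuclear genome encodes those of the arm that reaches into the matrix, and the mitochondrial genome those of the arm in the membrane, which are not analysed here. Supernumerary subunits surround the core and stabilise it. Assembly factors join the modules together and leave the finished enzyme. The retina, and its photoreceptors above all, has one of the highest rates of respiration of any tissue, and inherited defects of complex I damage retinal ganglion cells in humans.

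The sequences below are shown because they carry the 2 things the members' promoters could be read for, CpG methylation and sites of the transcription factors known for respiratory genes. They come from RefSeq (GRCm38.p6), which gave a promoter for 37 of the 42 genes, and run from 250 bases before the gene start to 50 bases after it. Capitals in the first 3 mark CpGs with enough reads in all 16 RRBS libraries, and in the other 4 a factor site.
Ndufa1 (chrX:37191189-37191488, minus strand): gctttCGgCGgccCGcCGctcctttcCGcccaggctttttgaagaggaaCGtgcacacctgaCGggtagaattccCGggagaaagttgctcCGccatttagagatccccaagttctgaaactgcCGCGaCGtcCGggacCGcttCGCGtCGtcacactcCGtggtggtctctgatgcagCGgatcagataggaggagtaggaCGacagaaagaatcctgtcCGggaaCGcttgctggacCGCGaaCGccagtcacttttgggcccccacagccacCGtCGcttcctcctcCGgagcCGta
Ndufb11 (chrX:20617570-20617869, minus strand): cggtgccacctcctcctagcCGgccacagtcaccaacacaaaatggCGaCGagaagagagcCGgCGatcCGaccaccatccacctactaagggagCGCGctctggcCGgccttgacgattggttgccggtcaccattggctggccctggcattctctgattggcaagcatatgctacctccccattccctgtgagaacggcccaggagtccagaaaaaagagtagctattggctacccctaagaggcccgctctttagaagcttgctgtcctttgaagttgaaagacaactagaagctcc
Ndufa13 (chr8:69901971-69902270, minus strand): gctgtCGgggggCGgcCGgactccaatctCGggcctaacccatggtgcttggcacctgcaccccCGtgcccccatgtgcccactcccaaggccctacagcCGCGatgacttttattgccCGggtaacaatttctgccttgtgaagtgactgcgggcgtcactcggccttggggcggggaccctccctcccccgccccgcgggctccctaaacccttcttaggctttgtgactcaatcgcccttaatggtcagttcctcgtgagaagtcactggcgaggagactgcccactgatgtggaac
Ndufa11 (chr17:56717512-56717811, plus strand, NRF1 site): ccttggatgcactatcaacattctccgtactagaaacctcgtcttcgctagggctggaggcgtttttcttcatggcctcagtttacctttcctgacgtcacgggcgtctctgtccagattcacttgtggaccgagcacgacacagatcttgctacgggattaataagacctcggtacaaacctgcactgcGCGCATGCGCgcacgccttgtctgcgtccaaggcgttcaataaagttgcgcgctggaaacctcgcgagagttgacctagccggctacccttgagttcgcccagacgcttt
Ndufaf4 (chr4:24897833-24898132, plus strand, NRF1 site): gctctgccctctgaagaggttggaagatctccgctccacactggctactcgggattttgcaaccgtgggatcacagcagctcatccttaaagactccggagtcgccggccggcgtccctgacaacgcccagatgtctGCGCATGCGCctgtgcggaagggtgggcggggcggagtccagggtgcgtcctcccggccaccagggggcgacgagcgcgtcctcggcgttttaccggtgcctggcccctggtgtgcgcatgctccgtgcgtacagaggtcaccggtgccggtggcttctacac
Ndufs3 (chr2:90904672-90904971, minus strand, ETS sites): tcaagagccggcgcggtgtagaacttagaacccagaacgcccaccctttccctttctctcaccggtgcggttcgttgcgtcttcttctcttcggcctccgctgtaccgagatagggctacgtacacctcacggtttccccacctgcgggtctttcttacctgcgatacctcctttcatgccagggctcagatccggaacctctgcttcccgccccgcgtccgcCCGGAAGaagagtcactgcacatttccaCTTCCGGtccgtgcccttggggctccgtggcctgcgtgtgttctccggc
Ndufaf1 (chr2:119662785-119663084, minus strand, ETS site): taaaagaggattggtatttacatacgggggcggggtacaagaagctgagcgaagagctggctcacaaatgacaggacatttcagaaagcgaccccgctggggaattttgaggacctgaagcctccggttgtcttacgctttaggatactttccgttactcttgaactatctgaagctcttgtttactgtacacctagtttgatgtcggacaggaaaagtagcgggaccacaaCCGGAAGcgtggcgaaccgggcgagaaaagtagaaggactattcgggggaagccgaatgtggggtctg

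The searched letters were GCGCATGCG for nuclear respiratory factor 1 (NRF1), CCGGAAG for ETS factors such as GABP, AAGATGG for YY1 and TATAAA for the TATA box, each on both strands. In Ndufa11 and Ndufaf4 the NRF1 letters were found on both strands as overlapping matches of 1 palindrome. Sites of different motifs did not overlap in any member. NRF1 letters stood in 3 of 37 member promoters, Ndufa8, Ndufa11 and Ndufaf4 (8.11%, against 1.81% of all 27025 gene promoters), and YY1 letters in 7 (18.9%, against 6.48%). ETS letters were found in 5 members (13.5%, against 9.12%) and the TATA box in 4 (10.8%, against 14.2%). Subunits and assembly factors both had promoters with NRF1 and with ETS letters. Member promoters had a median GC content of 59.3% and a median of 20 CpGs, against 52.7% and 7 over all promoters.

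The libraries differed in their levels of tissue markers, also within each group. Rod genes were high throughout, as in a retina, with all 14 listed markers found and a summed level of 18330 to 37910 FPKM in spaceflight and 24020 to 37060 FPKM in ground control libraries. The 9 lens markers summed to 2.78 to 18410 FPKM (highest in M22) and 5.22 to 26810 FPKM (highest in M31), the 10 markers of corneal and skin epithelium to 18.5 to 1942 FPKM (highest in M21) and 22.6 to 96.7 FPKM, and the 9 of skeletal muscle to 2.21 to 193 FPKM (highest in M22) and 1.37 to 107 FPKM (highest in M33), each range in spaceflight and then in ground control libraries. Some of these markers were listed at 0 in some libraries, such as Crygs, Krt5 and Ckm. The 8 markers of Müller glia summed to 1678 to 3584 FPKM (highest in M22) in spaceflight and 2053 to 5964 FPKM (highest in M31) in ground control libraries, and the 8 of pigment epithelium to 1096 to 5821 FPKM (highest in M23) and 1887 to 8733 FPKM (highest in M31). By log2 change, 7 of 7 tested pigment epithelium markers (median -0.38) and 7 of 8 Müller glia markers (median -0.19) were lower in spaceflight. So were 9 of 9 lens (median -1.27) and 8 of 8 tested muscle markers (median -0.30), while 10 of 10 surface epithelium markers were higher (median 0.77). The surface epithelium sum had a median of 45.1 FPKM in spaceflight, far below the 1942 FPKM of M21, and 24.9 FPKM in ground control. Its markers Krt1, Krt12, Sfn and Sbsn had lower group medians in spaceflight, and Krt5, Krt14, Krt10, Krt15, Dsp and Lor higher ones. None of the markers passed the call between the groups, and their part in the results below was not tested, except that each library was left out in turn. In pieces of whole tissue, fewer cells of a type and less RNA per cell cannot be told apart.

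The complex was expressed at high levels, and its assembly factors at lower ones. The median member stood at 72.3 FPKM in spaceflight and 84.3 FPKM in ground control retinas, against 9.30 and 9.36 FPKM for the median of the 14322 genes tested. Ndufv3, a small accessory subunit of the NADH-binding module, had the highest mean level, 234 to 397 FPKM in spaceflight libraries with a median of 320 FPKM, against 295 to 677 FPKM in ground control libraries with a median of 361 FPKM. Ndufa4 and Ndufb4, a membrane arm subunit, followed. Ndufb4 ranged over 171 to 255 FPKM in spaceflight libraries (median 214) and 158 to 356 FPKM in ground control libraries (median 209). A copy of it, Ndufb4b, exists in the mouse genome, and how reads common to both were counted is not given, so that this level is uncertain. At the low end were Ndufa4l2, Ndufaf1 and Ndufaf4, with means of 2.02, 7.35 and 8.87 FPKM. Within each library the median subunit was 6.39 ± 0.823 times as high as the median assembly factor in spaceflight (SD, n = 9) and 7.46 ± 1.29 times in ground control (SD, n = 7). These ratios overlapped, at 5.20 to 7.87 in spaceflight and 6.23 to 9.79 in ground control libraries.

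**Figure D1:**
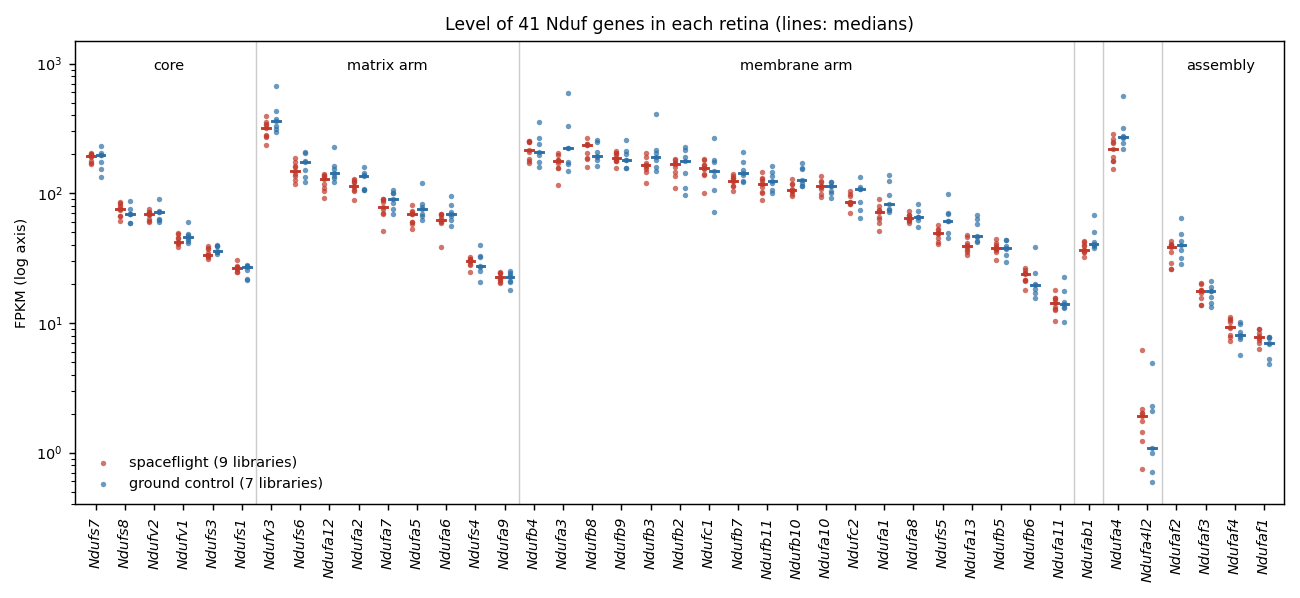
Each point is 1 retina library and each line a group median, in FPKM on a log axis, for 41 of the genes by role, with spaceflight (9 libraries) left of ground control (7 libraries). The groups overlap in every gene, 3 of the 4 assembly factors have mean levels below all complex I subunits but Ndufa11, and single ground control libraries stand far above the rest for Ndufv3, Ndufa3, Ndufb3 and Ndufa4.

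No member passed the call, which asked for 1.2-fold or more, a raw p up to 0.05 and an adjusted p up to 0.3 (limma on log2(FPKM + 0.1), Benjamini-Hochberg over all 14322 genes). Over all genes 21 passed, or 0.147%. At a raw p up to 0.05, 9 members were lower in spaceflight and none was higher, against 711 lower and 842 higher of all genes. With the fold of 1.2 added, 8 members (19.0% of 42) were lower and none higher, against 2.92% lower and 4.36% higher of all genes. These 8 became 5 without M31 and 5 without M40, 2 with M21 counted as ground control, and 1 with libraries weighted by their quality. Of the 8, 6 have transcripts of at most 1000 bases, which is 28.6% of the 21 subunits of that length, against 9.09% lower (53 of 583) over all genes of that length. The lowest adjusted p among the members was 0.354. In none of the 42 genes were the groups apart from each other, and the share of such genes among all genes was not counted.

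In 6 nuclear core subunits, from the arm that holds the flavin and the iron-sulfur clusters, levels differed little between the groups. Their median log2 change was 0.00, with 3 higher and 3 lower in spaceflight, none at a raw p up to 0.05. Ndufs7, which carries the last iron-sulfur cluster before ubiquinone, was the highest of them, with 168 to 205 FPKM in spaceflight (median 192) and 134 to 230 FPKM in ground control libraries (median 197). Ndufs8, a carrier of iron-sulfur clusters, had the largest positive log2 change of the 6, 0.10 ± 0.09 (SE, adjusted p = 0.671), with 60.8 to 85.8 FPKM in spaceflight and 59.2 to 86.6 FPKM in ground control. These ranges lay almost on top of each other.

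On the NADH side, Ndufv1, which binds NADH and the flavin, had 38.7 to 49.1 FPKM in spaceflight (median 42.01) and 41.6 to 59.7 FPKM in ground control libraries (median 46.2), a log2 change of -0.11 ± 0.08 (SE, adjusted p = 0.582). Its partner Ndufv2 had 60.2 to 75.6 FPKM in spaceflight (median 68.6) and 59.7 to 90.9 FPKM in ground control (median 71.3). Ndufs1, the largest core subunit, was the lowest of the 6, at 24.5 to 30.4 FPKM in spaceflight (median 26.8) and 21.5 to 27.8 FPKM in ground control (median 27.1). Ndufs3, a core subunit of the ubiquinone module whose promoter is printed above with its ETS letters, had 31.1 to 39.2 FPKM in spaceflight (median 33.6) and 33.9 to 39.9 FPKM in ground control (median 36.1). In 5 of 9 spaceflight libraries it was below every ground control library, but the change itself was small, -0.09 ± 0.06 on the log2 scale (SE, adjusted p = 0.575).

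Supernumerary subunits, 29 of the 42 members, made up 8 of the 9 at a raw p up to 0.05. Lower at that p were also 711 of all 14322 genes, and 62 of the 583 with transcripts up to 1000 bases. Of the 29, including the acyl carrier Ndufab1, 22 were lower in spaceflight and 7 higher, with a median log2 change of -0.15. At a raw p up to 0.05 there were 8, all lower. The median was -0.21 in the 9 of the matrix arm and -0.06 in the 19 of the membrane arm. The 8 were Ndufa13, Ndufb10, Ndufs5, Ndufa1, Ndufb7 and Ndufa3 of the membrane arm, Ndufa12 of the matrix arm, and Ndufab1, the mitochondrial acyl carrier protein, which also serves fatty acid synthesis. Their log2 changes were -0.25 to -0.49.

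Ndufa13, also known as GRIM-19, had the lowest p of all members. Its level was 33.4 to 47.5 FPKM in spaceflight libraries with a median of 39.2, against 42.3 to 68.0 FPKM in ground control libraries with a median of 46.4. In 7 of 9 spaceflight libraries it was below every ground control library, M22 and M23 being the exceptions, and M31, M32 and M40 were the highest ground control libraries. The log2 change was -0.39 ± 0.11 (SE), a fold of 0.766, with an adjusted p of 0.354. Ndufb10, a membrane arm subunit facing the intermembrane space, had 94.6 to 129 FPKM in spaceflight (median 107) against 113 to 171 FPKM in ground control (median 127), with 6 of 9 spaceflight libraries below all of ground control. Its log2 change was -0.31 ± 0.10 (SE, adjusted p = 0.369).

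Ndufs5, a small subunit on the intermembrane face, had 40.9 to 56.6 FPKM in spaceflight (median 49.2) and 45.3 to 98.3 FPKM in ground control (median 61.0). All 9 spaceflight libraries were below the ground control median, and the log2 change was -0.39 ± 0.13 (SE, adjusted p = 0.369). Ndufa1, an X-linked subunit needed for assembly of the membrane arm, had 50.9 to 89.8 FPKM in spaceflight (median 71.1) and 72.0 to 137 FPKM in ground control (median 83.2), with M31 and M40 highest. Its log2 change was -0.41 ± 0.15 (SE, adjusted p = 0.386). Ndufa3 had the most negative change of all members, -0.49 ± 0.23 (SE, adjusted p = 0.46), with 116 to 206 FPKM in spaceflight and 149 to 593 FPKM in ground control. That top value came from M40, the next highest library was M32, and the other 5 ground control libraries were between 149 and 224 FPKM, overlapping the spaceflight range.

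**Figure D2:**
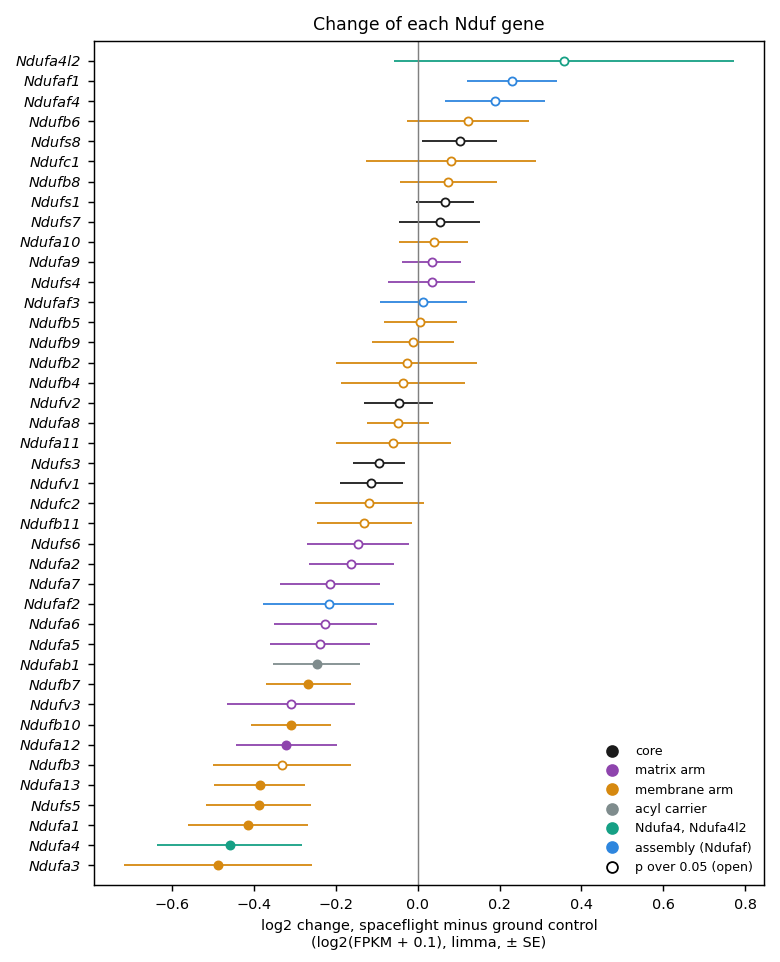
Points are log2 changes, spaceflight minus ground control, of 41 of the genes on the log2(FPKM + 0.1) scale with their SE, ordered by size and coloured by role, and filled where the unadjusted p is 0.05 or under. The 9 filled points lie between -0.25 and -0.49, the core subunits cluster near 0, and Ndufaf1 and Ndufaf4 stand near the top.

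Among the supernumerary subunits, those with the lowest p in the other direction did not pass the call with all libraries. Ndufb6 of the membrane arm had a log2 change of 0.12 ± 0.15 (SE, adjusted p = 0.763). It was at 17.8 to 26.6 FPKM in spaceflight (median 23.9) and 15.5 to 38.6 FPKM in ground control (median 19.5, highest in M31). Without M31 it passed the call at 0.27 (limma adjusted p = 0.261), as did 9.56% of all genes. Ndufb8, also of the membrane arm, had 0.08 ± 0.12 (SE, adjusted p = 0.822), at 161 to 267 FPKM in spaceflight and 163 to 257 FPKM in ground control. Ndufa10 of the membrane arm (0.04 ± 0.09, SE) and Ndufa9, near the joint of both arms (0.03 ± 0.07, SE), were as near to 0. Ndufb11, the other X-linked subunit, was at 88.7 to 146 FPKM in spaceflight (median 118) and 101 to 163 FPKM in ground control (median 125), a log2 change of -0.13 ± 0.12 (SE, adjusted p = 0.671).

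A pair of the genes named as subunits have other roles. Ndufa4 was first assigned to complex I and is now counted as a subunit of complex IV, cytochrome c oxidase. It had 153 to 288 FPKM in spaceflight (median 219) and 220 to 560 FPKM in ground control libraries (median 269), and 5 of 9 spaceflight libraries were below all of ground control. M40 alone held the value of 560 FPKM, and the next ground control library was at 317 FPKM. The log2 change was -0.46 ± 0.18 (SE, adjusted p = 0.395). Its paralog Ndufa4l2, known in other tissues as a gene induced by low oxygen, was the only member under 1 FPKM in some libraries. It had 0.746 to 6.24 FPKM in spaceflight (median 1.90, highest in M22) and 0.597 to 4.92 FPKM in ground control (median 1.09, highest in M31), with a log2 change of 0.36 ± 0.42 (SE, adjusted p = 0.753). It was 0.145 without M22, 0.168 without M34, 0.206 without M35 and 0.643 without M31, and 0.826 with libraries weighted by their quality (adjusted p = 0.31). M22 and M31 were also the libraries with the highest summed lens markers.

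Of the assembly factors, 3 were higher and 1 lower in spaceflight, with a median log2 change of 0.10 and none at a raw p up to 0.05. Ndufaf1, a member of the complex that builds the membrane arm, had 6.31 to 9.05 FPKM in spaceflight (median 7.76) and 4.83 to 7.80 FPKM in ground control (median 6.98). In 4 of 9 spaceflight libraries it was above every ground control library, and M32 and M40 were lowest in ground control. The log2 change was 0.23 ± 0.11 (SE, adjusted p = 0.464). Ndufaf4, which works with Ndufaf3 on the ubiquinone module, had 7.21 to 11.2 FPKM in spaceflight (median 9.37) and 5.70 to 10.3 FPKM in ground control (median 8.04), a change of 0.19 ± 0.12 on the log2 scale (SE, adjusted p = 0.569). Ndufaf3 itself was level, with 13.8 to 20.4 FPKM in spaceflight (median 17.7) and 13.4 to 21.0 FPKM in ground control (median 17.6), a log2 change of 0.01 ± 0.11 (SE, adjusted p = 0.967).

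Ndufaf2 went the other way from Ndufaf1 and Ndufaf4. It is a paralog of the subunit Ndufa12, which takes its place as the enzyme is finished. Its level was 26.03 to 43.2 FPKM in spaceflight (median 38.8) and 28.5 to 64.6 FPKM in ground control (median 40.1), with a log2 change of -0.22 ± 0.16 (SE, adjusted p = 0.613). Ndufa12 had 91.8 to 141 FPKM in spaceflight (median 130) and 123 to 228 FPKM in ground control (median 144), with a log2 change of -0.32 ± 0.12 (SE, adjusted p = 0.402). Both were highest in M40. Of the 4 assembly factor genes, Ndufaf2 has the shortest transcript, 678 bases for the longest coding one in the annotation used here.

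Subunits and assembly factors thus gave medians on opposite sides of 0, -0.10 for the 38 subunits (12 higher and 26 lower) and 0.10 for the 4 assembly factors, against 0.00 for all genes (50.1% lower). The difference between them was not tested, and the median was nearer to 0 for a wider set of assembly factors. Ndufaf5 to Ndufaf8 stand in the table under older symbols, which the name pattern does not match. Their log2 changes were -0.06 to 0.15, and the median of all 8 Ndufaf genes was 0.04. Of 12 other assembly factors found, 8 were higher and 4 lower, with a median of 0.07. Only Acad9, a partner of Ndufaf1 in building the membrane arm, was at a raw p up to 0.05, with 5.45 to 7.87 FPKM in spaceflight (median 6.27) and 4.48 to 6.13 FPKM in ground control (median 5.71), a log2 change of 0.22 (adjusted p = 0.408). Ecsit, another partner, had a log2 change of -0.19 (adjusted p = 0.526). For comparison, all 8 genes of complex II, succinate dehydrogenase, and its assembly were lower in spaceflight, with a median log2 change of -0.12, but only Sdhaf4 was at a raw p up to 0.05 (-0.49, adjusted p = 0.395).

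The spread between libraries was wider than the difference between the groups. Deviations of each gene from its mean over 16 libraries were taken on the log2 scale, and their median over the subunits was -0.31 to 0.12 in spaceflight libraries (lowest in M21, mean -0.05 ± 0.14, SD, n = 9) and -0.16 to 0.32 in ground control libraries (mean 0.07 ± 0.20, SD, n = 7). M31 and M40, at 0.32 and 0.30, were the highest of all 16. For the assembly factors the range was -0.23 to 0.18 in spaceflight and -0.46 to 0.14 in ground control, and M32 was the lowest, at -0.46. M31 and M40 were not high for assembly factors (-0.12 and -0.07). M40 was not high for all subunits. It was the highest ground control library for Ndufv3, Ndufa3, Ndufb3 and Ndufa4 but the lowest for Ndufs7, Ndufs1 and Ndufb4.

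**Figure D3:**
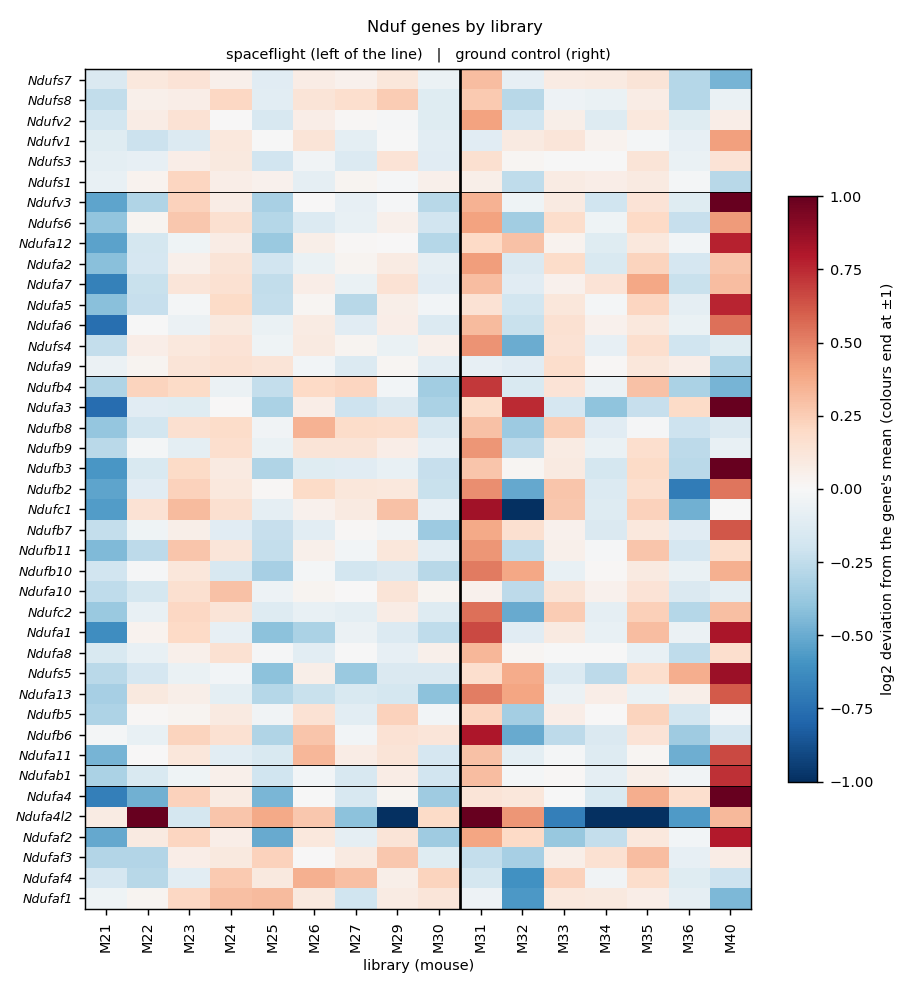
Rows are 41 of the genes by role and columns the 16 libraries, spaceflight left of the line and ground control right of it, coloured by the log2 deviation from the gene's mean with the colours ending at ±1. M21 is low and M31 high over most subunits, M40 is high for some and low for others, and the 4 assembly factor rows at the bottom follow neither M31 nor M40 except for Ndufaf2.

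Transcript length moved with these deviations in some libraries and not in others. Complex I subunits are small proteins, and 21 of the 38 have no coding transcript over 1000 bases. Over all 583 tested genes of that length, 67.2% were lower in spaceflight with a median log2 change of -0.11, and the median deviation was highest in M31 (0.35) and lowest in M21 (-0.20). Subunits were also highest in M31 and lowest in M21. In M22, however, short genes were at 0.08 and subunits at -0.062, and in M24 short genes were at -0.055 and subunits at 0.099. Among the 21 subunits of that length, 18 were lower (85.7%), with a median of -0.16. The 12 subunits of over 1000 and up to 2000 bases had 6 higher and 6 lower and a median of -0.02, against -0.05 over all 2189 genes of that length, and the 5 longer ones a median of 0.04, against 0.00 over 8999 genes. The part of transcript length in the subunits' values was not tested.

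**Figure D4:**
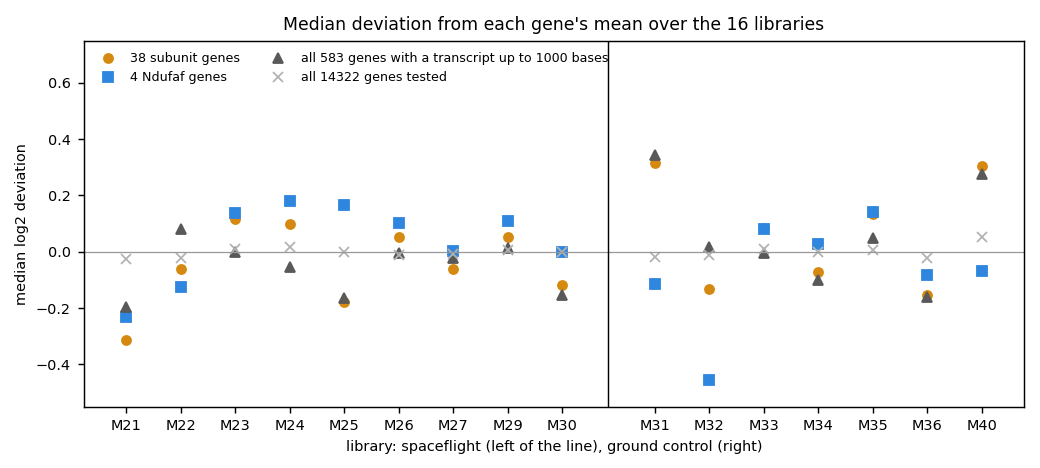
The vertical axis is the median log2 deviation in each library of 38 subunits, 4 assembly factors, all 583 genes with transcripts up to 1000 bases, and all 14322 genes tested, with the spaceflight libraries left of the line and ground control right of it. Subunits and short genes are both highest in M31 and M40 and lowest or near lowest in M21, while the assembly factors are lowest in M32.

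Single libraries also decided the calls. Without M31, 6 of the 42 members passed, and so did 9.56% of all genes. Those members were Ndufa13, Ndufs5, Ndufa4, Ndufa12 and Ndufa1, lower, and Ndufb6, higher. Compared with all libraries, the log2 change was smaller in size for Ndufa13 (-0.34, against -0.39) and Ndufa1 (-0.34, against -0.41). It was about the same for Ndufa12 (-0.32) and larger in size for Ndufs5 (-0.40, against -0.39), Ndufa4 (-0.48, against -0.46) and Ndufb6 (0.27, against 0.12). The subunit median was -0.05 without M31, against -0.10. Without M33, 3 passed (3.55% of all genes), and without M35, 3 (3.76%), in each case Ndufa13, Ndufb10 and Ndufs5. With libraries weighted by their quality (limma's array weights), Ndufa13 alone passed, as did 2.39% of all genes. Its log2 change was then -0.27 with an adjusted p of 0.224, in a range of 0.224 to 0.728 over its 27 alternatives. Without both M31 and M40, left out after their values were seen, the subunits had a median of -0.02 with 18 higher and 20 lower. With M21 counted as ground control they had a median of -0.02 with 17 higher and 21 lower. Other libraries moved them the other way. The subunit median was -0.11 without M32, with 8 higher and 30 lower. It was -0.17 without M40, M32 and M36, also left out after their values were seen, with 1 higher and 37 lower.

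Promoter methylation gave a second view of the same genes. Within 1000 bp of the start, 36 members had CpGs with at least 10 reads in all 16 RRBS libraries. None passed the call of 10 percentage points and an adjusted p of 0.05 (quasi-binomial F-test), nor did any of the 15052 promoters tested (0.0%). At a raw p up to 0.05 there were 4 members, Ndufa1 and Ndufc1 lower and Ndufb4 and Ndufaf4 higher, or 11.1% of 36 against 5.33% of all promoters. Both higher ones were near 0, Ndufb4 at 0.585% in spaceflight and 0.351% in ground control, and Ndufaf4 at 0.584% and 0.373%. Ndufc1 was at 3.19% and 4.09%. For the 34 autosomal members the mean over all libraries was 0.195% to 3.66% with a median of 0.365%, and 30 of them were under 1%. A fall of 10 points was thus not possible for these 34, and the call could only have found a rise in them. Over all 14582 autosomal promoters the median was 0.794%, and 25.9% were at 10% or more. The 4 assembly factors were at 0.339% to 0.670%, in the same range as the subunits.

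The 2 members on the X chromosome stood apart from the autosomal ones. In female tissue 1 X chromosome is silenced in each cell, and CpG-rich promoters on it are methylated, so that part of the reads of an X-linked promoter are. Ndufa1 was at 25.8% to 31.7% in spaceflight (mean 29.2% ± 1.91, SD, n = 8) and 29.9% to 34.2% in ground control libraries (mean 31.9% ± 1.70, SD, n = 8), read at 57 CpGs with 3502 to 6157 reads per library. All 8 spaceflight libraries were below the ground control median and 5 below every ground control library. The difference over pooled reads was -2.80 percentage points (adjusted p = 0.764). Ndufb11 had a median of 34.6% in spaceflight and 37.5% in ground control libraries over wider ranges, a difference of -1.29 points (adjusted p = 0.967). That difference was -2.24 to -0.07 points with 1 library left out, the first without spaceflight library M23 and the second without spaceflight library M24. Both lie among the promoters of their chromosome, of which 469 were tested with a median of 35.3%, and 74.4% were between 20% and 45%. Those as a whole were also slightly lower in spaceflight, 339 of 469 with a median difference of -0.95 points, 32 lower and 1 higher at a raw p up to 0.05, while 7470 of 14582 autosomal promoters were lower, with a median difference of 0.00.

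In the Ndufa1 sequence above, every CpG in capitals was partly methylated. Over all its 57 CpGs the level was 9.02% to 47.6% in spaceflight and 9.72% to 49.0% in ground control, and 47 of them were lower in spaceflight. In the stretch from 125 bases before the start to 205 bases after it, chosen after the values were seen, all 34 were lower, with a median difference of -4.34 points, while farther upstream 13 were lower and 10 higher. Neighbouring CpGs share reads and mice, so these are no independent counts. Ndufb11 had 16 CpGs lower and 10 higher. In Ndufa13, whose RNA had the lowest p, 33 of 70 CpGs were lower and 33 higher, and the most methylated one, at position -281 from the start, had 28.3% in spaceflight and 26.1% in ground control. The promoter as a whole was at 3.56% in spaceflight and 3.32% in ground control (adjusted p = 0.967).

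**Figure D5:**
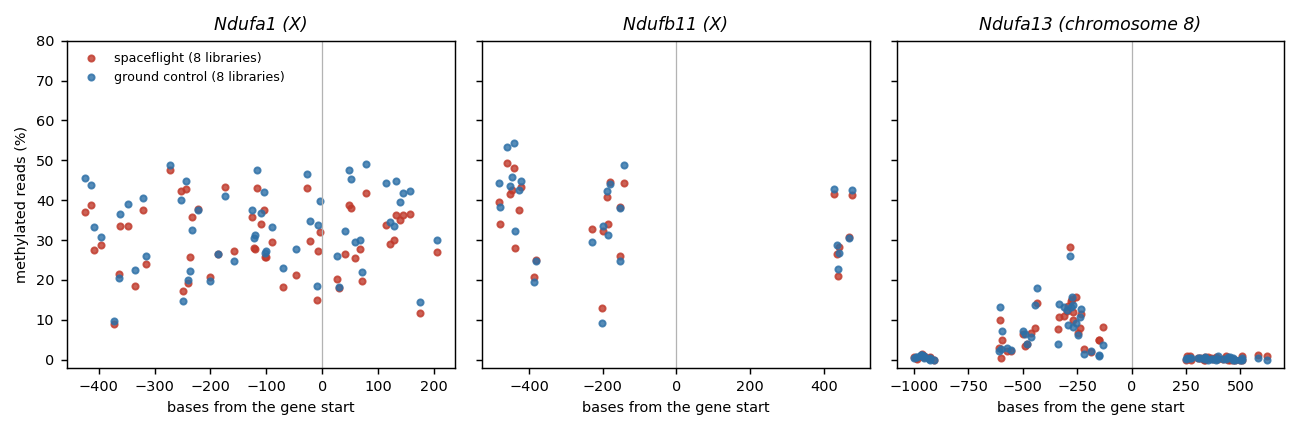
Each point is the percent of methylated reads at 1 CpG, as the mean of 8 spaceflight or 8 ground control libraries. Points are placed by distance in bases from the start of Ndufa1, Ndufb11 and Ndufa13. The X-linked promoters lie mostly between 10% and 50% throughout, while Ndufa13 is near 0 except upstream of the start.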

How the data were processed

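RNA libraries were made after rRNA depletion, and RRBS libraries after MspI digestion, from retinas of 16 mice per assay, 1 library each. For RNA, the authors used Trimmomatic for trimming and TopHat2 for alignment (GRCm38), and deposited FPKM from Cufflinks; the annotation release is not given in the sources used here, and without read counts no counting error can be stated. For RRBS, Trim Galore (version 0.4.5) was used for trimming; the authors then removed duplicates by random tags, aligned with Bismark and deposited, per CpG cytosine, a read count and the percent of reads methylated. Spaceflight libraries held 61652709 to 80242659 such reads and ground control libraries 59572205 to 105298542.

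Expression was compared with limma (version 3.58.1 in R 4.3.3, mean-variance trend) on log2(FPKM + 0.1) for 14322 genes with a mean of at least 1 FPKM; a fold change on this scale understates low genes. The call thresholds for RNA and the thresholds of 10 points and 0.05 for methylation follow the study's methods. The study's own RNA test needs reads. For methylation the study set its threshold on single CpGs and CpG regions. Here it was set on reads summed over a whole promoter, so the calls are not comparable. Strands of each CpG were added, and 1071573 CpGs had 10 reads in all 16 libraries. Reads within 1000 bp of a RefSeq start were summed per library and compared by a quasi-binomial F-test. Transcript lengths are those of the longest coding transcript in GENCODE M21, found for 82.2% of the genes and all members.

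Named genes were those passing the call, the core subunits, the Ndufaf genes, the 5 other members of lowest p in each direction, the 3 highest and 3 lowest in level, Ndufa4 and Ndufa4l2, and those with promoter methylation of at least 10%; Ndufa3, Ndufa12, Acad9, Ecsit, Sdhaf4 and the pathway genes were added after their values were seen. Members and lists were chosen with earlier results of these data known. Values of 1 member are not reported here by gene. Separate mice are replicates. For 6 ground control RNA libraries the mouse number in the label differs from that in the study's sequencing summary, which was followed; the group is the same, but the eye and the column used depend on it. There were 2 further columns of the expression table that were not used. One gene entry without a name held up to 0.388% of a library's FPKM. RefSeq gave no promoter entry for Ndufa2, Ndufa4l2, Ndufb9, Ndufs1 and another member.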

Additional observations from a re-analysis of the deposited data

Results flagged for a closer look

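Of 54 groups of values examined, 9 had a library far from the others by Dixon's criterion. The values were those of each gene named by rule, both role medians and both X-linked promoters, in each group. The criterion's rate of about 1 of 20 groups by chance holds for independent, normally distributed values. These groups share libraries and FPKM need not be normal, so the count of 9 was not compared with that rate. Genes added after their values were seen were not examined. Among them, M40 was the highest ground control library for Ndufa3 (593 FPKM, the next at 330) and Ndufa12 (228 FPKM, the next at 164). In ground control, M40 was far above the rest for Ndufa4 (560 FPKM, the next at 317), Ndufv3 (677 FPKM, the next at 432) and Ndufv1 (59.7 FPKM, the next at 48.9). M31 was far above the rest of ground control for Ndufa4l2 (4.92 FPKM, the next at 2.29) and Ndufb6 (38.6 FPKM, the next at 24.2). In spaceflight, M22 was far above the rest for Ndufa4l2 (6.24 FPKM, the next at 2.18) and M23 for Ndufs1 (30.4 FPKM, the next at 27.4). The median deviation of the assembly factors was far below the rest of ground control in M32 (-0.46, the next at -0.12), and the Ndufb11 promoter was far below it in M34 (30.2% methylated, the next at 35.9%).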

How the results depend on the processing

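No member passed the call under another pseudocount, filter or scaling, without the trend, with the eye as a covariate or with M21 as ground control, and 0 to 6 passed with 1 library left out. Members lower at p of 0.05 and fold of 1.2 numbered 8 as reported, 5 to 12 with 1 library left out (5 without M31 and 5 without M40, 12 without M36), 1 with array weights (and 1 higher, Ndufa4l2), 2 with M21 as ground control, 1 without M31 and M40 (Ndufs5, and 1 higher, Ndufb6) and 5 without M40, M32 and M36; members higher numbered 0 to 1 with 1 library left out (Ndufb6 without M31, Ndufaf1 without M33, M34 or M27). Calls over all genes ran from 0 to 1369, against 21. The subunit median stayed below 0 in all 27 alternatives (-0.15 to -0.05 with 1 library left out, -0.17 without M40, M32 and M36), and the Ndufaf median was 0.03 to 0.15 with 1 library left out, 0.05 with array weights and -0.02 without M40, M32 and M36. The alternatives that leave out M31 and M40, or M40, M32 and M36, were chosen after seeing the data.

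Log2 changes near 0 turned round. With array weights Ndufa9 was at -0.046, Ndufaf3 at -0.015 and Ndufv2 at 0.003. With M21 as ground control Ndufb4 was at 0.038 and Ndufv2 at 0.001. Without M31 and M40 Ndufa9 was at -0.035, Ndufaf3 at -0.016, Ndufb4 at 0.004 and Ndufv2 at 0.039. Without M40, M32 and M36 Ndufa10 was at -0.07, Ndufa9 at -0.041, Ndufaf3 at -0.065, Ndufb6 at -0.081, Ndufb8 at -0.072, Ndufs1 at -0.044, Ndufs7 at -0.13 and Ndufs8 at -0.011. With 1 library left out the range was -0.002 to 0.072 for Ndufa10, -0.014 to 0.066 for Ndufa9, -0.04 to 0.068 for Ndufaf3, -0.117 to 0.078 for Ndufb4, -0.018 to 0.111 for Ndufs7 and -0.083 to 0.017 for Ndufv2. The causes were not tested. No promoter of a member passed under any alternative, and the Ndufb11 promoter difference was 0.078 points within 200 bp of the start. No paired analysis was possible because the groups compared share no mouse, and so no mouse number in the labels.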

Other observations

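Regulators of mitochondrial gene expression were listed beside complex I. Of 13, 6 were higher and 7 lower in spaceflight, none passed the call, and the median log2 change was -0.01. Tfb1m, a methyltransferase of mitochondrial ribosomal RNA, had 2.90 to 5.41 FPKM in spaceflight (median 3.68) and 1.87 to 3.78 FPKM in ground control (median 2.56), a log2 change of 0.44 (limma adjusted p = 0.386). Esrra, a nuclear receptor of the respiratory gene programme, had 3.90 to 5.43 FPKM in spaceflight (median 4.25) and 4.42 to 9.60 FPKM in ground control (median 4.83), a log2 change of -0.32 (limma adjusted p = 0.453). Ppargc1a, the coactivator of that programme, had a median of 23.8 FPKM in spaceflight and 24.4 FPKM in ground control (log2 change 0.05, limma adjusted p = 0.847). The genes of the factors whose letters were searched in the promoters had log2 changes of -0.01 (Nrf1), 0.11 (Gabpa) and -0.04 (Yy1), and their ranges overlapped between the groups.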
